A study of Arabidopsis thaliana with 12 samples.

Results

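The EDS1, PAD4 and SAG101 family of Arabidopsis thaliana was followed across 4 genotypes of rosette leaf by RNA sequencing. Its members were taken by gene identifier and not by a cut on measured values, though with earlier results of these data known: EDS1 (AT3G48090), EDS1B (AT3G48080), PAD4 (AT3G52430) and SAG101 (AT5G14930). They are 4 of the 34262 genes in the count table, and all 4 were among the 22351 genes kept after a filter on low counts.

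The proteins resemble lipases and act as a hub of plant immunity. EDS1 pairs with either PAD4 or SAG101. Small signalling molecules, made by immune receptors that carry a TIR domain, bind these pairs and let them engage helper receptors of the ADR1 family (EDS1 with PAD4) or the NRG1 family (EDS1 with SAG101). The PAD4 branch is best known in leaves for promoting salicylic acid synthesis and the SAG101 branch for cell death, and EDS1 and PAD4 are themselves induced by salicylic acid. NDR1, a membrane protein, serves several receptors of the coiled-coil type, a route long set beside the one through EDS1.

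Libraries came from untreated plants aged 3 weeks, which grew in soil at 22 °C in days of 16 h light and nights of 8 h. About 50 mg of rosette leaf went into each RNA sample, and the libraries kept strand information and were read as pairs of 150 bases. The genotypes were Col-0 (wild type), ka120, and ka120 combined with ndr1 or with pad4, all in the Col-0 background and with 3 libraries each, so the ka120 mutation was shared by 3 of the 4 groups. KA120 is an importin-like nuclear transport receptor, and the series title names it as a negative regulator of effector-triggered immunity. Mutants in pad4 or ndr1 alone were not analysed here, and the sources used here do not give the alleles. The labels do not say whether replicate libraries were made from separate plants, so the p-values measure the spread between these libraries, which may be technical. In such bulk samples, fewer cells of a type and less RNA per cell cannot be told apart.

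Total counts ran from 68436911 to 85884840 per library and 23074 to 24423 genes had at least 1 count. KA120 (taken as AT3G08960 from background knowledge) stood at 29.2 ± 4.48 CPM in Col-0, where CPM is the count per 1000000 counts of the effective library size (mean ± SD, n = 3), and at means of 4.14 to 5.28 CPM in the ka120 genotypes. NDR1 had 0 to 12 counts per library in ka120 ndr1. PAD4 transcript was still measured in ka120 pad4, so its level does not check that label. Summed levels of 6 mesophyll markers were 64495 to 68251 CPM for Col-0, 34494 to 39098 for ka120, 40257 to 42763 for ka120 ndr1 and 41715 to 50222 for ka120 pad4. None of the 6 markers was at 0 in any genotype, and they ran opposite to the family. Phloem markers (2 genes) moved the same way, from 248 to 291 CPM for Col-0 to 124 to 143 for ka120, 140 to 152 for ka120 ndr1 and 167 to 185 for ka120 pad4. Guard cell markers (4 genes) summed to 72.9 to 79.1 CPM for Col-0, 60 to 68.4 for ka120, 62.6 to 74.2 for ka120 ndr1 and 67.9 to 77.2 for ka120 pad4. Root markers (4 genes, 1 of them at 0 in every genotype), floral markers (4 genes) and shoot meristem markers (3 genes) summed to at most 162, 8.32 and 5.75 CPM in any library, and the floral sum was above its Col-0 range of 1.36 to 2.76 CPM in all 9 ka120 libraries. The part of these shifts in the results below was not tested.

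EDS1 and EDS1B lie next to each other on the minus strand of chromosome 3 (TAIR10.1), at chr3:17755329-17758147 and chr3:17752463-17755190, with 138 bases between them. PAD4 is farther along the same chromosome on the plus strand, at chr3:19431095-19434450, and SAG101 is on the plus strand of chromosome 5, at chr5:4828499-4830982. The reference gives AT3G48080 no symbol, and the name EDS1B is background knowledge. The coding sequences of EDS1 and EDS1B were identical at 1561 of 1859 aligned bases (84%), whereas the other pairs of members were 60.7% to 62.8% identical. How far reads can tell the tandem copies apart matters for the values of EDS1 and EDS1B, and the first 120 coding bases of each, 5′ to 3′ and read from the TAIR10.1 genome, show it. Capitals mark the 24 bases that differ, and no gap was needed.
EDS1: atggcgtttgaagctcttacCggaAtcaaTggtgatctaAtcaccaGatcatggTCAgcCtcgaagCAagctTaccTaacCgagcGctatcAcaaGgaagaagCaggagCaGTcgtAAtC
EDS1B: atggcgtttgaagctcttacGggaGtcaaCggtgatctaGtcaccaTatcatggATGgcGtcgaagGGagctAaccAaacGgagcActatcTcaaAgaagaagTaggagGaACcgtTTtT
Of the 2427 windows of 150 bases in the EDS1B transcript, 0 occurred unchanged in the EDS1 transcript, and the longest run the transcripts shared was 72 bases. EDS1B also overlaps AT3G48070, on the other strand, by 503 bases. The sources used here do not give the strand setting of counting, so reads in that overlap may be shared.

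The sequences before the gene starts were examined because the members moved together. WRKY transcription factors of the immune response bind W-boxes, whose core TTGAC was searched on both strands, as was every motif below; on the opposite strand of the gene the core reads GTCAA. The 250 bases before EDS1, chr3:17758148-17758397 on the minus strand, held 1 such core, in capitals here, which began 96 bases before the gene.
EDS1 promoter: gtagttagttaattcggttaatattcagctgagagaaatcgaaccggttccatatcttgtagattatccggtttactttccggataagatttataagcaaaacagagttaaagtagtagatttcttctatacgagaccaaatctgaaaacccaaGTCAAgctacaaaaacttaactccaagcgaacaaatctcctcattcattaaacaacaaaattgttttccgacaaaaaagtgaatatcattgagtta
The 250 bases before PAD4, chr3:19430845-19431094 on the plus strand, held none, which says only that these letters are not in this window.
PAD4 promoter: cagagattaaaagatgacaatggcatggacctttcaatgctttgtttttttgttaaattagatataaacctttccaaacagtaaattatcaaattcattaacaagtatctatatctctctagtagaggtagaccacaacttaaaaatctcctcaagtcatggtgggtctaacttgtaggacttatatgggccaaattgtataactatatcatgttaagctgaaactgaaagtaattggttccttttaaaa
The windows before EDS1B and SAG101 had 1 core each, 202 and 177 bases before the start, and both of these lay inside the neighbouring gene. A W-box core on either strand was present in 44.9% of 27443 protein-coding promoters of the same length, so 3 of 4 members is a description only. Neither TGACG (the core bound by TGA factors, in 18.6% of promoters) nor CGCG (the core of the CGCG box bound by CAMTA factors, in 10.1%) was in any member's window. TTGAC and TGACG can overlap in TTGACG.

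In ka120 leaves all 4 members were far higher than in wild-type leaves. EDS1, the shared partner of the pairs, stood at 22.4, 20.6 and 23.1 CPM in Col-0 and at 127, 129 and 77.4 CPM in ka120. Its copy EDS1B stood at 1.09, 0.843 and 1.47 CPM in Col-0 and at 24.4, 26.8 and 15.1 CPM in ka120. Each ka120 library was above each Col-0 library for both genes, and the third ka120 library was the lowest of its group. PAD4, the partner that works with ADR1 helpers, stood at 5.26, 4.6 and 5.54 CPM in Col-0 and at 94, 107 and 54.6 CPM in ka120. SAG101, the partner that works with NRG1 helpers, stood at 7.49, 8.24 and 6.64 CPM in Col-0 and at 45.2, 48.5 and 33.4 CPM in ka120. Neither gene's groups overlapped.

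**Figure D1:**
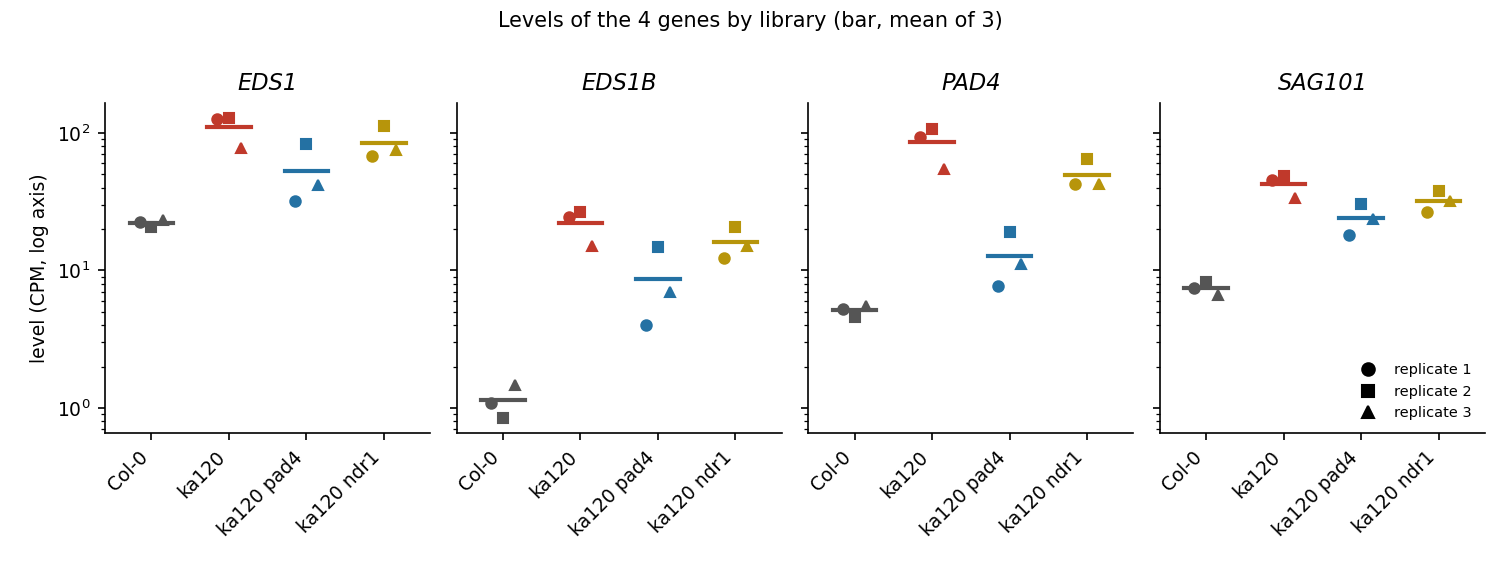
Level of each gene in each library, in CPM on a log axis, by genotype. Points are libraries, with a shape for each replicate number, and bars are the mean of 3. All ka120 genotypes sit above Col-0 for every gene, and for PAD4 the ka120 pad4 libraries (7.73 to 19.1 CPM) lie below all ka120 ndr1 libraries (42.2 to 64.4 CPM).

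On the log2 scale, EDS1B rose by 4.27 ± 0.46 (log2 fold change ± SE, adjusted p = 7.89e-06) and PAD4 by 4.05 ± 0.35 (adjusted p = 1.26e-06). SAG101 rose by 2.51 ± 0.20 (adjusted p = 8.59e-07) and EDS1 by 2.34 ± 0.32 (adjusted p = 6.24e-05). These are edgeR quasi-likelihood tests in 1 model of all 12 libraries, with p-values adjusted over all tested genes and a gene called changed where the adjusted p is under 0.05. The 4 of 4 members called higher stand against 28% of all tested genes called higher in this comparison. Ranked by fold among the 22351 genes, EDS1B was the 547th from the top, PAD4 the 596th, SAG101 the 1077th and EDS1 the 1159th. Summing EDS1 and EDS1B into a single gene gave a log2 fold change of 2.53.

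Adding ndr1 to ka120 left the family high. EDS1 stood at 67.8, 112 and 75.1 CPM in ka120 ndr1, which is 76.4% of its mean level in ka120. PAD4 stood at 42.4, 64.4 and 42.2 CPM, or 58.4% of its ka120 level, EDS1B at 12.4, 20.8 and 15 CPM (72.7%) and SAG101 at 26.5, 37.5 and 32 CPM (75.5%). For every member the libraries of ka120 ndr1 and ka120 overlapped, and 0 of 4 members were called lower, where 2.74% of all tested genes were. At an unadjusted level of 0.05 edgeR's quasi-likelihood test would have passed 1 of 4, PAD4, and DESeq2 called 0 of 4 as well.

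The intervals of these differences leave room for sizeable falls. The log2 difference was -0.39 for EDS1 (95% interval -1.06 to 0.28) and -0.46 for EDS1B (-1.28 to 0.36). It was -0.78 for PAD4 (-1.43 to -0.12, adjusted p = 0.143) and -0.41 for SAG101 (-0.82 to 0.01). Without ka120 replicate 3, PAD4 differed by -1.02 and was called (adjusted p = 0.0464).

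With pad4 added to ka120, PAD4 had the largest fall of the 4 members. It stood at 7.73, 19.1 and 11.2 CPM in ka120 pad4, which is 14.9% of its mean level in ka120, and every one of these libraries was below every ka120 library. The log2 fold change was -2.75 ± 0.32 (adjusted p = 0.000853), the 113th lowest of 22351. How much of this is the mutated locus itself and how much is regulation cannot be told apart. The other members were lower too. SAG101 stood at 18, 30.5 and 23.8 CPM (56.8% of its ka120 level, -0.82 ± 0.19, adjusted p = 0.0122) and EDS1B at 3.98, 14.8 and 7.01 CPM (38.9%, -1.36 ± 0.39, adjusted p = 0.0299), both with no overlap with ka120. For EDS1B the nearest libraries were at 14.8 CPM in ka120 pad4 and 15.1 CPM in ka120. EDS1 stood at 32.1, 83.2 and 41.9 CPM (47.1%, -1.08 ± 0.31, adjusted p = 0.0303), and its second ka120 pad4 library lay above the lowest ka120 library. The 4 of 4 members called lower, the mutated PAD4 among them, compare with 8.39% of all tested genes called lower.

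The calls for EDS1 and EDS1B were lost when any 1 of 4 libraries was left out. Without ka120 replicate 1 or 2, or without ka120 pad4 replicate 1 or 3, the adjusted p of EDS1 was 0.101 to 0.114 and that of EDS1B 0.0801 to 0.111, with log2 fold changes of -0.83 to -0.98 and -1.02 to -1.29. Without ka120 replicate 2 the SAG101 difference was -0.71 (adjusted p = 0.0605). Without ka120 pad4 replicate 2, the library with the highest levels of its group, the differences were -1.59 for EDS1 and -2.01 for EDS1B.

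**Figure D2:**
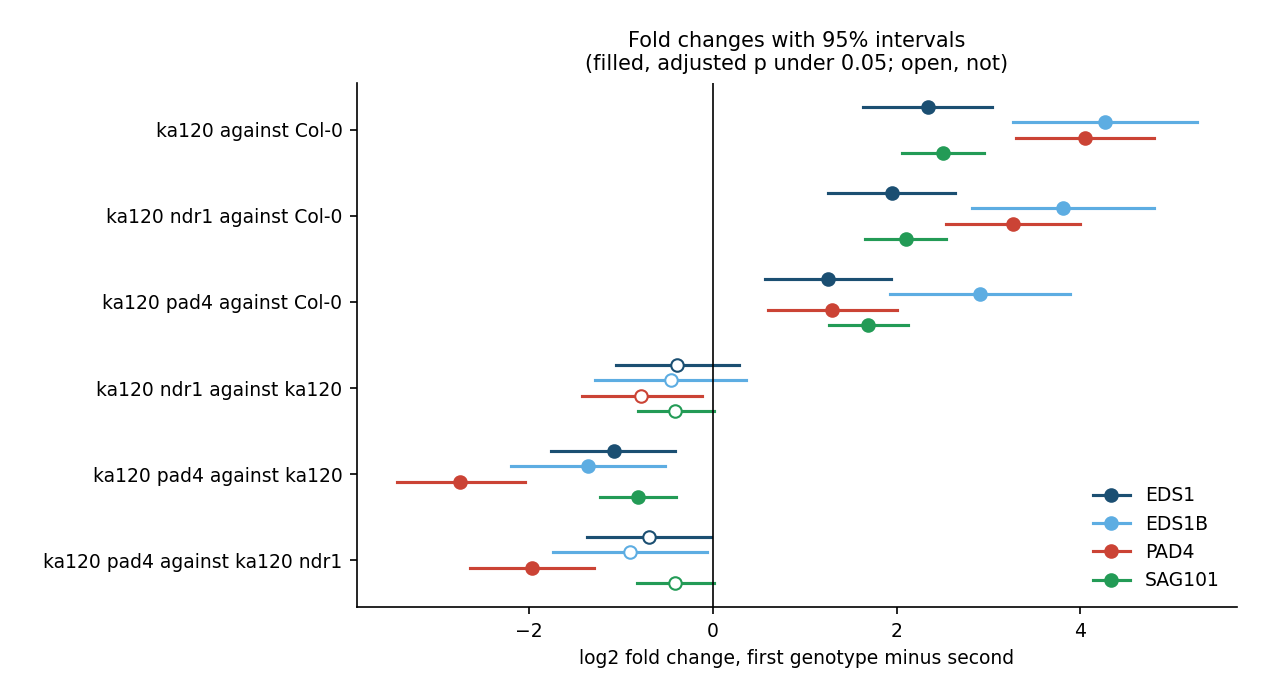
Log2 fold change of each gene in the 6 comparisons, with 95% intervals from the edgeR fit; the first genotype named is compared with the second, filled points passed an adjusted p of 0.05 and open points did not. Members stand to the right of 0 against Col-0 in every ka120 genotype, and against ka120 the PAD4 point with pad4 added (-2.75) lies furthest to the left.

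Both double mutants stayed above the wild type. In ka120 pad4 the log2 fold change against Col-0 was 2.91 ± 0.45 for EDS1B (adjusted p = 0.000265) and 1.69 ± 0.20 for SAG101 (adjusted p = 3.58e-05). It was 1.30 ± 0.32 for PAD4 (adjusted p = 0.00625) and 1.25 ± 0.32 for EDS1 (adjusted p = 0.00691). No ka120 pad4 library overlapped Col-0 for any member, and the 4 of 4 called higher stand against 21.6% of tested genes. The share of all tested genes without overlap was not counted in any comparison, so the lack of overlap is a description only. With ka120 pad4 replicate 2 left out, the log2 fold change was 2.26 for EDS1B (adjusted p = 0.000405), 1.49 for SAG101 (adjusted p = 0.000109), 0.88 for PAD4 (adjusted p = 0.0299) and 0.75 for EDS1 (adjusted p = 0.0281). In ka120 ndr1 the log2 fold changes against Col-0 were 3.81 ± 0.46 for EDS1B, 3.27 ± 0.34 for PAD4 and 1.95 ± 0.32 for EDS1, and SAG101 was 4.3-fold higher (95% interval 1.66 to 2.54 on the log2 scale), with adjusted p-values of 5.16e-06 to 0.000321. Again 4 of 4 were called higher, against 24.9% of tested genes.

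On the linear CPM scale, the share of the rise that was left was smallest for PAD4 in both double mutants, and PAD4 is the mutated gene in ka120 pad4. Of the difference in mean CPM between ka120 and Col-0, ka120 pad4 kept 9.44% for PAD4, 34.1% for EDS1, 35.6% for EDS1B and 47.6% for SAG101. For ka120 ndr1 the shares were 55.7%, 70.6%, 71.2% and 70.3% in the same order of genes. With ka120 pad4 replicate 2 left out, an alternative chosen after seeing the data, the shares kept by ka120 pad4 were 5.42% for PAD4, 16.8% for EDS1, 20.8% for EDS1B and 38.4% for SAG101. Any other single library left out, of ka120 ndr1 and the shared groups too, moved a share by less than 1.5 times. These shares reuse the same ka120 and Col-0 libraries and carry no test of their own.

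Set directly against each other, the double mutants differed in PAD4. Its log2 fold change in ka120 pad4 against ka120 ndr1 was -1.97 ± 0.31 (adjusted p = 0.00905), with no overlap of libraries. The other members were not called. The difference was -0.70 for EDS1 (95% interval -1.37 to -0.02, adjusted p = 0.26), -0.90 for EDS1B (-1.74 to -0.06, adjusted p = 0.244) and -0.41 for SAG101 (-0.83 to 0.01, adjusted p = 0.284). So 1 of 4 members was called lower, where 0.886% of all tested genes were. As that member is the gene mutated in ka120 pad4, the count is not a result about the family. The PAD4 call was lost without ka120 pad4 replicate 3 (-1.89, adjusted p = 0.0532). Without ka120 pad4 replicate 2, EDS1 (-1.20, adjusted p = 0.026) and EDS1B (-1.55, adjusted p = 0.0273) were called as well.

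Levels of different genes can be compared once they are divided by exon length, as RPKM (CPM per kilobase of exons in TAIR10.1). In Col-0 the mean level was 8.62 RPKM for EDS1, 3.39 for SAG101, 2.28 for PAD4 and 0.441 for EDS1B. In ka120 it was 43.6 RPKM for EDS1, 37.7 for PAD4, 19.2 for SAG101 and 8.59 for EDS1B. PAD4 and SAG101 thus traded places, and this order held in each library of those genotypes. In ka120 ndr1 the order was as in ka120, at 33.3, 22, 14.5 and 6.24 RPKM, and PAD4 was above SAG101 in each of its libraries. In ka120 pad4 it was as in Col-0, with 20.5 RPKM for EDS1, 10.9 for SAG101, 5.62 for PAD4 and 3.34 for EDS1B, and SAG101 was above PAD4 in each library.

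Ratios of the members' counts within a library are free of library size and showed the balance of the partners' transcripts. PAD4 counts were 23.5%, 22.4% and 24% of EDS1 counts in Col-0 and 74.1%, 82.5% and 70.5% in ka120. In ka120 ndr1 they were 62.6%, 57.5% and 56.2%, and in ka120 pad4 24.1%, 23% and 26.7%. The ratio was thus high in ka120 and ka120 ndr1, with no overlap with the others, whereas ka120 pad4 overlapped Col-0. It was also steady within a genotype: in ka120 pad4 EDS1 itself ranged from 32.1 to 83.2 CPM while the ratio moved between 23% and 26.7%. In every genotype these ratios describe transcripts only, as protein levels are not part of these data. PAD4 is the mutated gene in ka120 pad4, so how much of its ratio there is the locus itself and how much is regulation cannot be told apart.

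**Figure D3:**
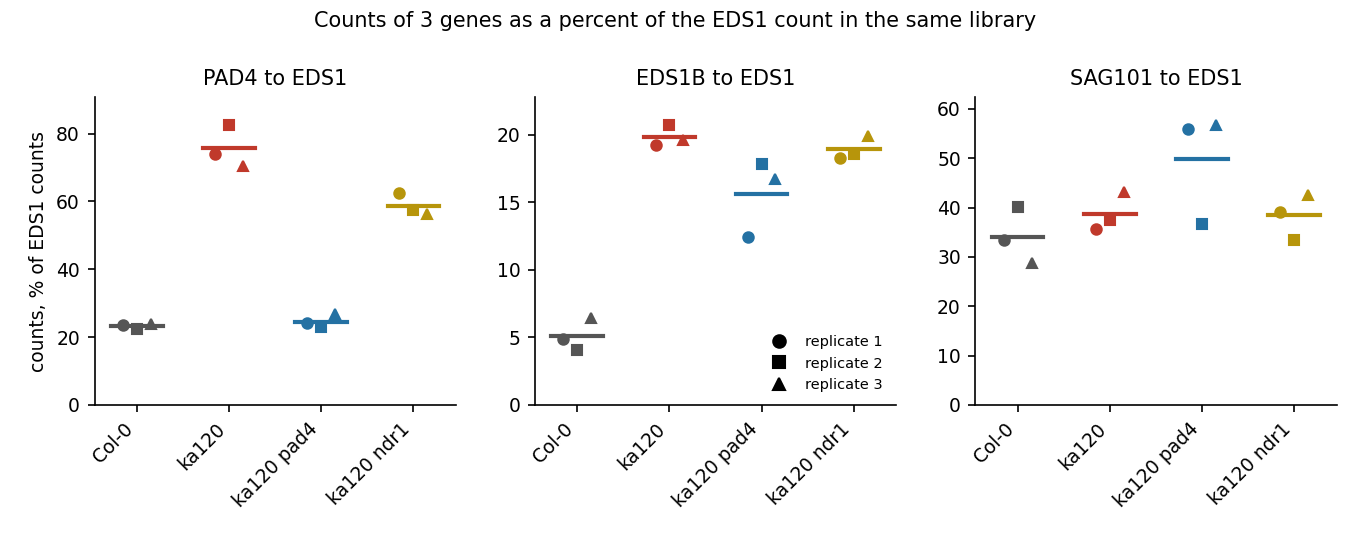
Counts of PAD4, EDS1B and SAG101 as a percent of the EDS1 count in the same library, by genotype. Points are libraries and bars are means of 3; PAD4 to EDS1 is near 23% to 25% in Col-0 and ka120 pad4 but 58.8% in ka120 ndr1 and 75.7% in ka120, while EDS1B to EDS1 is above Col-0 in every ka120 genotype.

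EDS1B changed its share relative to EDS1 in all ka120 genotypes. Its counts were 5.12 ± 1.17% of EDS1 counts for Col-0, 19.8 ± 0.785% for ka120, 19 ± 0.848% for ka120 ndr1 and 15.6 ± 2.86% for ka120 pad4 (SD, n = 3). Compared between the 3 Col-0 and the 9 other libraries, the mean log2 ratio was 1.80 higher, with an adjusted p of 0.0364 over 4 ratios in an exact two-sided permutation test (p = 0.00909, the smallest this design allows). Leaving out any Col-0 library raised the adjusted p to 0.145, with differences of 1.66 to 1.96. With 2 Col-0 libraries left, the smallest p that the test allows is itself larger, so the lost call does not measure the difference. For PAD4 to EDS1 the same comparison gave 1.03 (exact permutation p = 0.0364, adjusted 0.0727), and without ka120 pad4 replicate 2 it gave 1.16 (adjusted p = 0.0242). With any other single library left out, the adjusted p of this permutation test was 0.0727 to 0.194. These values pool unlike genotypes. Against Col-0 the log2 ratio differed by 1.69 in ka120, 1.33 in ka120 ndr1 and 0.07 in ka120 pad4, where PAD4 is mutated. The pooled difference thus describes no single genotype.

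For SAG101 against EDS1 the genotypes overlapped. SAG101 counts were 34.1 ± 5.68% of EDS1 counts in Col-0, 38.8 ± 3.93% in ka120, 38.4 ± 4.6% in ka120 ndr1 and 49.8 ± 11.4% in ka120 pad4, and the mean log2 ratio differed by 0.30 between Col-0 and the other libraries (adjusted p = 0.158, exact permutation test). The second ka120 pad4 library had 36.7% against 56% and 56.7% in the others. SAG101 to PAD4 ran from 147 ± 30% in Col-0 to 51.6 ± 8.45% in ka120, 65.6 ± 9.16% in ka120 ndr1 and 201 ± 37.5% in ka120 pad4 (difference -0.73, adjusted p = 0.2, exact permutation test). Between 2 genotypes of 3 libraries each, no exact test can go below p = 0.1.

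Libraries of a genotype differed in the family as a whole. Replicate 2 had the highest level of all 4 members in each of the 3 ka120 genotypes, and the lowest level of all 4 was in replicate 3 of ka120 and in replicate 1 of ka120 pad4. In ka120 pad4, EDS1B was 3.72 times and SAG101 1.70 times as high in its highest library as in its lowest. In Col-0 the members did not share an order, with replicate 3 highest for 3 of them and replicate 2 for SAG101. The same libraries were high for other immune genes: of 80 tested genes on the pathway lists described below, 54, 56 and 51 had their highest level in replicate 2 of ka120, ka120 pad4 and ka120 ndr1, against 33.7%, 37% and 35.8% of all tested genes. Whether the libraries differ in plants, handling or time of sampling is not given.

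**Figure D4:**
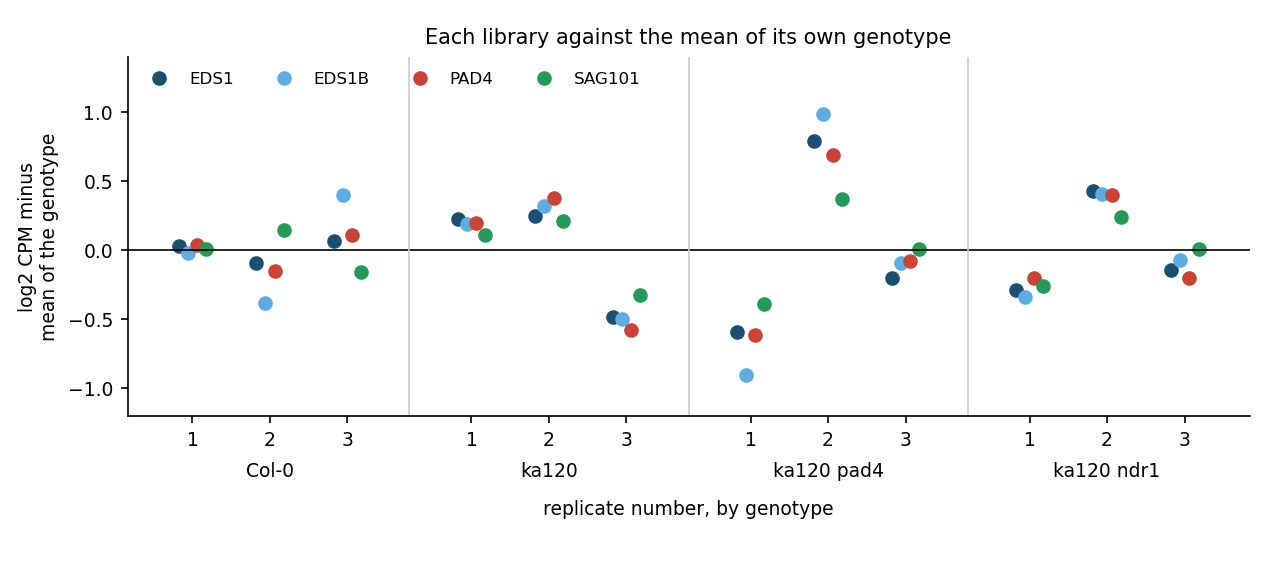
Log2 CPM of each gene in each library minus the mean of its genotype. In the ka120 genotypes the 4 genes of a library lie mostly on the same side of 0. Libraries are most widely spread in ka120 pad4, where EDS1B is at -0.90 in replicate 1 and 0.99 in replicate 2, and EDS1 at -0.59 and 0.79.

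The genes with the most similar pattern were found by the root-mean-square difference of centred log2 CPM over the 12 libraries, among 6950 genes with a symbol and a mean of at least 5 CPM. For EDS1 these were NUDT7, a Nudix hydrolase known to restrain EDS1 signalling (0.15), GFAT, an enzyme of amino sugar synthesis (0.16), and HSF A4A, a heat shock factor (0.18). Mean NUDT7 levels were 29.3 ± 1.11 CPM for Col-0, 157 ± 37.7 for ka120, 105 ± 29 for ka120 ndr1 and 80.6 ± 33.6 for ka120 pad4. By the same measure EDS1 was 0.28 from SAG101, 0.75 from PAD4 and 0.81 from its own tandem copy. The 3 genes were picked as the nearest of 6950, so their lying closer than the members is not a result about the family. The measure also counts the size of a change, and PAD4 and EDS1B rose more than EDS1 in ka120.

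PAD4 was nearest to CRK13, a receptor-like kinase (0.22), PBS3, the enzyme that joins glutamate to isochorismate on the way to salicylic acid (0.29), and NUDT6, a relative of NUDT7 (0.37). CRK13 stood at 1.23 ± 0.0312 CPM in Col-0, 16 ± 4.47 in ka120, 9.6 ± 2.11 in ka120 ndr1 and 2.29 ± 1.35 in ka120 pad4. The measure includes the ka120 pad4 libraries, where PAD4 is the mutated gene. All genes in this paragraph were likewise picked as the nearest of 6950. EDS1B was nearest to RLP34, a receptor-like protein (0.26), WRKY54, a transcription factor (0.26), and HR4, a relative of the RPW8 resistance proteins (0.27). SAG101 was nearest to UTR3, a nucleotide sugar transporter (0.11), and to ATERDJ3B (0.13) and SHD (0.14), both chaperone components of the endoplasmic reticulum. SHD stood at 311 ± 20.3 CPM in the wild type and at 1576 ± 245 CPM in ka120.

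The 6 tested genes beside the members or overlapping them differed by log2 fold changes of -0.10 to 0.68 in ka120 against Col-0, all smaller than those of the members. AT3G48070, whose gene overlaps EDS1B, had mean levels of 27.1 ± 1.07 CPM for Col-0, 26.1 ± 0.623 for ka120, 29.1 ± 1.89 for ka120 ndr1 and 27.9 ± 0.366 for ka120 pad4 (log2 fold change in ka120 -0.06 ± 0.06). RR5, upstream of EDS1, went from 11.3 ± 2.38 to 17.6 ± 4.05 CPM in ka120 and OEP7, upstream of PAD4, from 8.03 ± 0.62 to 12.9 ± 1.2 CPM. AT5G14920, only 114 bases upstream of SAG101, stood at 19.1 ± 0.866 and 17.9 ± 1.89 CPM.

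Lists of genes that act before, with and after the family were then counted, with 81 genes in 8 lists and 80 of them tested. In ka120 against Col-0, 62 were called higher and 4 lower, with a median log2 fold change of 1.05 over the lists and 0.02 over all tested genes. Of all tested genes, 28% were called higher in this comparison and 54.9% in either direction. Left-out libraries moved none of the list counts in this comparison by more than 1.5 times. The mesophyll markers that moved with these groups are given above.

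**Figure D5:**
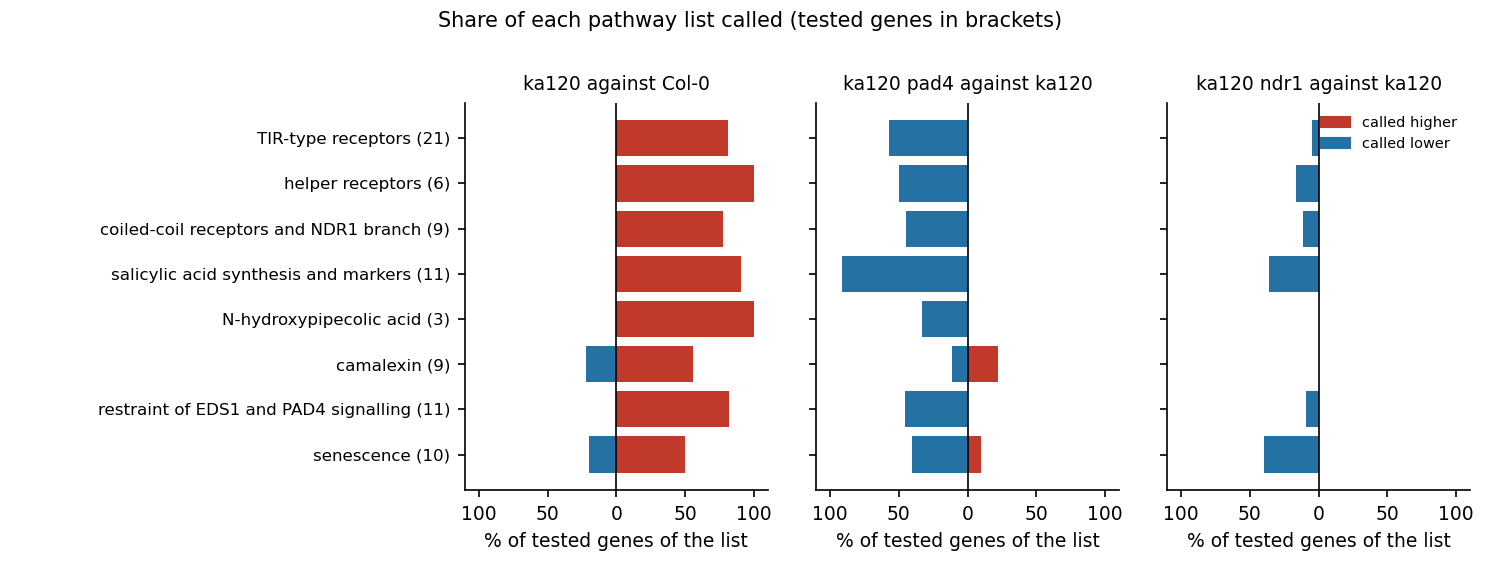
Percent of the tested genes of each pathway list called higher (right) and lower (left) in 3 comparisons by edgeR, with the number tested in brackets. In ka120 against Col-0 the bars point to higher levels, with 62 of 80 genes called higher; with pad4 added, 40 of 80 were called lower than in ka120, and with ndr1 added 12 of 80.

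Helper receptors, the partners downstream of the family, were called higher in ka120 in 6 of 6 cases, with a median log2 fold change of 2.54, against 28% of all tested genes. The rises were uneven, and the smallest was that of NRG1A, from 21.3 ± 1.3 to 33.8 ± 1.81 CPM (0.67 ± 0.07). ADR1 rose from 10.2 ± 0.314 to 49.9 ± 5.92 CPM (2.29 ± 0.10, adjusted p = 1.84e-08), ADR1-L1 from 24.4 ± 2.91 to 193 ± 31.9 CPM (2.99 ± 0.19) and ADR1-L2 from 19.9 ± 1.2 to 138 ± 17.4 CPM (2.79 ± 0.14). NRG1C, a shortened NRG1 relative that restrains the branch with SAG101, had 0 counts in Col-0, where 0 counts allow up to 0.0425 to 0.0506 CPM per library for counting error, and 0.273 to 0.926 CPM in ka120.

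Upstream, 17 of 21 receptors of the TIR type were called higher and 0 lower, with a median of 0.65, against 28% of all tested genes called higher. SOC3 rose from 5.93 ± 0.995 to 19.6 ± 1.46 CPM (1.73 ± 0.14) and CHS1 from 4.05 ± 0.79 to 10.8 ± 1.35 CPM (1.42 ± 0.18). TN2, a truncated TIR receptor, had 0 counts in every Col-0 library and 0.831 to 1.09 CPM in ka120. RLM1A rose from 0.109 ± 0.0397 to 0.39 ± 0.0761 CPM (1.82 ± 0.67, adjusted p = 0.036), a call lost without any 1 Col-0 library or without ka120 replicate 1 or 2. RRS1, RPP5, RLM3 and RBA1 were not called. Some of these receptors belong to clusters of near-identical genes, which includes RPP4, RPP5 and SNC1, so their counts are uncertain.

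The branch beside the family was counted in the same way. Of 9 genes of coiled-coil receptors and the NDR1 route, 7 were called higher and 0 lower, with a median of 0.86, against the same 28%. RPS2, a receptor that needs NDR1, rose from 6.45 ± 0.68 to 25.9 ± 3.33 CPM (2.01 ± 0.14), ZAR1 from 66 ± 3.55 to 236 ± 33.1 CPM (1.84 ± 0.17) and RPP7 from 182 ± 6.29 to 393 ± 7.94 CPM (1.11 ± 0.08). NDR1 rose from 5.27 ± 0.433 to 13.1 ± 1.52 CPM (1.32 ± 0.29, adjusted p = 0.0019), a call lost with limma on the authors' log2 values. Its libraries ran from 4.79 to 5.63 CPM in Col-0 and from 11.5 to 14.5 CPM in ka120. Both fits take the spread from all 12 libraries, among them ka120 ndr1, where NDR1 is mutated and had 0 to 12 counts. The part of this in the lost call was not tested.

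Downstream, salicylic acid synthesis and its markers had 10 of 11 genes called higher, against 28% of all tested genes, with a median of 4.49, and EPS1 not called. PR1, the usual marker, stood at 0 to 0.0674 CPM in Col-0 and at 1397 to 2005 CPM in ka120. BGL2, a glucanase, rose from 4.64 ± 0.555 to 851 ± 168 CPM (7.52 ± 0.41), DMR6, which hydroxylates salicylic acid, from 9.23 ± 1.68 to 440 ± 116 CPM (5.58 ± 0.32) and PR5, a thaumatin-like protein, from 24.6 ± 3.33 to 930 ± 181 CPM (5.24 ± 0.29). All 3 genes of N-hydroxypipecolic acid synthesis, the mobile signal of systemic resistance, were called higher, against the same 28%. SARD4 rose from 17.6 ± 0.952 to 61.3 ± 12.1 CPM (1.80 ± 0.26), while ALD1 and FMO1 had at most 0.0709 CPM in any Col-0 library and 2.17 to 5.22 and 2.75 to 5.43 CPM in ka120.

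For camalexin, the defence compound that gave PAD4 its name, 5 of 9 genes were called higher and 2 lower, where 28% of all tested genes were called higher and 54.9% in either direction. PAD3, its last enzyme, rose from 0.195 ± 0.181 to 3.3 ± 1.76 CPM (4.06 ± 0.99, adjusted p = 0.0041), CYP71A13 from 0.112 ± 0.0865 to 2.79 ± 1.04 CPM (4.64 ± 0.72) and WRKY33, a transcription factor of the pathway, from 8.54 ± 0.564 to 40 ± 9.34 CPM (2.23 ± 0.27). CYP71A12 had at most 0.0674 CPM in Col-0 and 1.23 to 3.19 CPM in ka120. Of 11 genes on the list for restraint of EDS1 and PAD4 signalling, 9 were called higher and 0 lower, against the same 28%. The list was drawn from background knowledge, and whether NUDT6 itself restrains this signalling was not tested. NUDT6 rose from 2.95 ± 0.317 to 76.6 ± 20.9 CPM (4.70 ± 0.39), BAP1 from 0.273 ± 0.0915 to 9.2 ± 3.81 CPM (5.05 ± 0.63), NUDT7 by 2.42 ± 0.28 and BON1, a membrane-bound copine, from 12 ± 0.903 to 51.9 ± 10.9 CPM (2.12 ± 0.20).

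Senescence genes, the group that gave SAG101 its name, had 5 of 10 tested called higher and 2 lower, with a median of 0.12. With 54.9% of all tested genes called in either direction, a count of this size is near the background and is not a result about the list. SAG13 rose from 3.8 ± 3.1 to 126 ± 35.8 CPM (5.06 ± 0.51), WRKY53 from 2.1 ± 0.614 to 16.4 ± 3.48 CPM (2.96 ± 0.29) and WRKY6 from 6.32 ± 0.388 to 10.8 ± 2.83 CPM (0.78 ± 0.17). SAG29 fell from 3.45 ± 0.747 to 0.582 ± 0.342 CPM (-2.56 ± 0.41). SAG12, the classic marker of late senescence, was at 0 in all 12 libraries.

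With pad4 added to ka120, 40 of the 80 list genes were called lower than in ka120 and 3 higher, against 8.39% of all tested genes called lower and 18.2% called in either direction. The count of genes called in either direction was 43, and it fell to 22 and 21 without ka120 replicates 1 and 2 and to 23 and 25 without ka120 pad4 replicates 1 and 3. Salicylic acid genes were called lower in 10 of 11 cases, with a median of -1.33. PR1 stood at 160 to 634 CPM in ka120 pad4 (-2.19 ± 0.39, adjusted p = 0.00343), BGL2 at 137 to 388 CPM (-1.88 ± 0.32, adjusted p = 0.00282) and DMR6 at 131 to 249 CPM (-1.33 ± 0.27, adjusted p = 0.00595). These genes remained above all Col-0 libraries, as PAD4 itself did.

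TIR receptors were called lower in 12 of 21 cases with a median of -0.34, among them SOC3 at 11.3 ± 1.49 CPM (-0.80 ± 0.14, adjusted p = 0.00301). TN2 had 0 to 0.0673 CPM in ka120 pad4 and 0.276 to 0.333 CPM in ka120 ndr1. Of the helpers 3 of 6 were called lower. ADR1 stood at 31.4 ± 1.8 CPM (-0.67 ± 0.09, adjusted p = 0.00144) and ADR1-L1 at 108 ± 26.1 CPM (-0.83 ± 0.18, adjusted p = 0.00838), and ADR1-L2 stood at 96.9 ± 16.4 CPM, with a call lost without any 1 of ka120 replicates 1 and 2 and ka120 pad4 replicates 1 and 3. On the list for restraint, 5 of 11 genes were called lower. The count was 2 and 1 without ka120 replicates 1 and 2, 1 without ka120 pad4 replicate 1 or 3, and 8 without ka120 pad4 replicate 2. NUDT6 fell to 11.9 ± 7.28 CPM in ka120 pad4 (-2.69 ± 0.35, adjusted p = 0.00107).

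The other lists gave counts that moved with single libraries. Of 9 genes of coiled-coil receptors and the NDR1 route, 4 were called lower, but 0 without ka120 replicate 1 or 2, 2 without ka120 pad4 replicate 1 and 1 without ka120 pad4 replicate 3. Of 3 N-hydroxypipecolic acid genes, SARD4 alone was called, and 0 were without ka120 pad4 replicate 1 or ka120 replicate 1 or 2, and 2 without ka120 replicate 3 or ka120 pad4 replicate 2. Senescence genes gave 4 lower and 1 higher. Their count was 1 without ka120 pad4 replicate 1 or ka120 replicate 1 or 2, 2 without ka120 pad4 replicate 3 and 3 without ka120 pad4 replicate 2. Camalexin genes had 2 called higher and 1 lower, with a median of 0.15. PAD3 stood at 0.747 to 8.52 CPM in ka120 pad4 and at 1.27 to 4.39 CPM in ka120, and CYP71A13 at 1.05 to 6.05 and 1.7 to 3.78 CPM, and both overlapped.

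With ndr1 added to ka120, 12 of 80 list genes were called lower and 0 higher, and NDR1 itself was among the 12. Of all tested genes, 2.74% were called lower and 5.94% in either direction. The count was 1 without ka120 replicate 1 or 2 or ka120 ndr1 replicate 1, 3 without ka120 ndr1 replicate 2 and 6 without ka120 ndr1 replicate 3. Salicylic acid genes gave 4 of 11 and senescence genes 4 of 10, and the other lists at most 1 each. PR1 stood at 473 to 685 CPM, BGL2 at 311 to 416 CPM and SAG13 at 27.9 to 38.9 CPM, each below every ka120 library. ADR1 stood at 32.7 to 39.2 CPM, also below ka120. Between the double mutants, 3 of 80 list genes were called, NDR1, GGP1 and SAG29, all higher in ka120 pad4. NDR1 is the gene mutated in the other line, and 2.39% of all tested genes were called, so the count is near the background. It ran from 1 without ka120 pad4 replicate 3 or ka120 ndr1 replicate 1 or 2 to 21 without ka120 pad4 replicate 2.

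Against Col-0, 49 of 80 list genes were called higher and 10 lower in ka120 pad4, and 58 higher and 9 lower in ka120 ndr1. Of all tested genes, 21.6% and 24.9% were called higher in these comparisons. Helper receptors were called higher in 6 of 6 cases and salicylic acid genes in 10 of 11 in each double mutant. TIR receptors were called higher in 10 of 21 cases in ka120 pad4 and 15 of 21 in ka120 ndr1. These comparisons share the Col-0 libraries, and a difference between the counts was not tested.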

How the data were processed

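RNA-seq of rosette leaves gave 12 libraries, 3 for each of 4 genotypes. The submitters' processing notes name HISAT2 2.0.4, HTSeq 0.6.1p1 and the TAIR10 build, without roles; the sources used here do not give the annotation release or the strand setting. The table the authors deposited was treated as estimated counts per gene, since multiples of 4 made up 45.7% to 48.1% of values between 4 and 40, where chance gives 25%. All values were whole, so rounding changed nothing. The counting intervals and the floor of 3 counts cover counting error only. A second deposited table holds log2 values of 22605 genes, each the log2 of the count plus 0.5 over a constant per library (relative spread at most 2.5e-10), used for 1 alternative. All columns belonged to a sample (0 did not), and 0 rows lacked a gene name.

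The test was edgeR 4.0.16's quasi-likelihood F test under R 4.3.3 (TMM, default filter on low counts, 22351 genes) in 1 model of all libraries with 1 coefficient per genotype, and p-values were adjusted by Benjamini-Hochberg over all tested genes in each of 6 comparisons. SE is the size of the log2 fold change divided by the root of its F statistic. Genes were matched to TAIR10.1 (32548 identifiers matched, 1714 not), whose genome gave the sequences. Coding sequences were aligned with Biopython 1.88. Ratios used log2 of counts plus 2 and exact permutation tests in scipy 1.17.1. The edgeR step was tested on simulated counts. Alternatives were DESeq2 1.42.0, DESeq2 size factors, no filter, only the 2 groups, counts divided by 4, limma 3.58.1 on the log2 values, a replicate block, EDS1 and EDS1B summed, each library left out and, added after seeing the data, a robust spread estimate.

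The members and lists were chosen with earlier results of these data known. Named list genes are the 4 called members of each list with the largest change in ka120 against Col-0. Uncalled genes, GGP1, NRG1A, and the RPP4 and SNC1 examples were named after their values were seen. Genes of similar pattern and neighbours followed a set rule.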

Additional observations from a re-analysis of the deposited data

How the results depend on the processing

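Of 342 values of members under other settings, 324 kept their direction and side of the threshold, 15 lost a call, 3 gained one and 0 reversed; all calls against Col-0 were kept under each setting run. In ka120 pad4 against ka120, EDS1 was -1.08 with the robust spread estimate (adjusted p = 0.0743) and -1.09 with only the 2 groups (adjusted p = 0.0842), and -1.59 to -0.83 with libraries left out. EDS1B was -1.36 in both of these settings (adjusted p = 0.0649 and 0.0828) and -2.01 to -1.02 with libraries left out, and SAG101 -1.02 to -0.64. PAD4 in ka120 ndr1 against ka120 ran from -1.02 to -0.59 with libraries left out. In ka120 pad4 against ka120 ndr1 with libraries left out, EDS1 ran from -1.20 to -0.44, EDS1B from -1.55 to -0.56 and PAD4 from -2.39 to -1.71, and PAD4 was -1.97 with only the 2 groups (adjusted p = 0.0554). The ratio of PAD4 to EDS1 ran from 0.93 to 1.16 and that of EDS1B to EDS1 from 1.66 to 1.96 with libraries left out. Genes called in ka120 pad4 against ka120 numbered 4072, with 2634 for only the 2 groups and 1885 to 4764 with libraries left out. In ka120 ndr1 against ka120 they numbered 1327, with 2576 by DESeq2 and 136 to 2232 with libraries left out. In ka120 pad4 against ka120 ndr1 they numbered 535, with 1495 by DESeq2, 76 for only the 2 groups and 150 to 934 with libraries left out. Fewer libraries enter the fits of 2 groups or with 1 left out. Without ka120 pad4 replicate 2, however, more genes were called in ka120 pad4, at 4764 against ka120 and 934 against ka120 ndr1. The cause of these moves was not tested for any setting. Of 796 values of named list genes, 95 lost a call and 0 reversed, and of 756 list counts 112 moved by over 1.5 times. Over all tested genes, same-numbered libraries deviated together in 1 of 18 pairs (r over 0.1; range -0.055 to 0.106), so the numbers were not taken to pair the samples, although within the family replicate 2 was the highest of each ka120 genotype; with the replicate block 12168, 4252, 1344, 9346, 10747 and 609 genes were called in the 6 comparisons, against 12276, 4072, 1327, 9378, 10822 and 535 without it, and EDS1 in ka120 pad4 against ka120 was -1.15 with the block (adjusted p = 0.0114). EDS1B in Col-0, at 50 counts in its lowest library, has the least depth behind it.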
